A study of Mus musculus with 9 samples.

Results

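The response of primary cultured renal cells to tumour necrosis factor (TNF) was measured by RNA sequencing in 6 of the 9 libraries of this study. The cells were grown from enzyme-digested whole kidneys of wild-type mice, replated and treated for 6 h. The compared groups were 3 libraries of cells given PBS and 3 libraries of cells given TNFα at 20 ng/mL, and the other 3 libraries, which received TNFα with the inhibitor ACHP, entered only the estimate of the spread. All genes that passed an expression filter were kept, which left 14747 of the 57010 genes counted. Strain, age and sex of the mice were not given in the sources used here, nor was it stated whether replicates came from separate animals, so p-values measure only the spread between these libraries.

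TNF is a cytokine made mainly by macrophages that binds TNF receptors on the cell surface. Receptor-bound TRAF and cIAP proteins lead to activation of the IKK kinases, which mark the inhibitor IkBα for destruction and so release NF-kB, a dimer of Rel proteins, into the nucleus. In kidney tubules this pathway is known for turning on chemokines, adhesion molecules and its own inhibitors. Many of those inhibitors are direct NF-kB targets and close a feedback loop.

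NF-kB binds short motifs near the start sites of such genes, and 4 of the 15 genes with the largest rises had a match to the NF-kB consensus motif, on either strand, in the stretch from 250 bases before to 50 after the start. These 4 promoters are shown because their genes stood among the largest rises reported below, and the 250 bases before the start are printed 5′ to 3′ on the gene's strand with each match in capitals. They are RefSeq sequences on GRCm38.p6.
Ccl20, chr1:83116516-83116765, plus strand: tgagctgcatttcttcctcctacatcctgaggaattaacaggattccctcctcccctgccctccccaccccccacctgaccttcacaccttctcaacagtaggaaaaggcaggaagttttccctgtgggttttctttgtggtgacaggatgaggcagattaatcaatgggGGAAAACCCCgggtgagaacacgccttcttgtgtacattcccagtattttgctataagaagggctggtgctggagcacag
Neurl3, chr1:36273426-36273675, minus strand: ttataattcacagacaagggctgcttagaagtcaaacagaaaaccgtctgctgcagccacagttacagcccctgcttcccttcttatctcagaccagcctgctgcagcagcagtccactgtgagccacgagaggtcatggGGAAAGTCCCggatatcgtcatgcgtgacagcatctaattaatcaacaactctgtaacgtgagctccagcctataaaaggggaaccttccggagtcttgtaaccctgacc
Cxcl2, chr5:90903649-90903898, plus strand: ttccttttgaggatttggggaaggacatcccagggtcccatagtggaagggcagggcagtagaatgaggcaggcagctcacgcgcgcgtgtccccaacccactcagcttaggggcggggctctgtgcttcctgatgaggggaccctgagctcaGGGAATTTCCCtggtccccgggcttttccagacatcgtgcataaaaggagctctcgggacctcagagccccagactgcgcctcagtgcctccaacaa
Cxcl10, chr5:92348890-92349139, minus strand: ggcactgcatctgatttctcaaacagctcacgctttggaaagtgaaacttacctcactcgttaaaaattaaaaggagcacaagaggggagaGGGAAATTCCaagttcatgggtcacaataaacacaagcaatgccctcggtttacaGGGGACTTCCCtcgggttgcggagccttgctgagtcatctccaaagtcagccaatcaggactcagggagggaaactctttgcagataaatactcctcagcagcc

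The matches start at positions -159 to -80 relative to the start site, and in Cxcl2 and Cxcl10 overlapping matches run together into a single block of capitals. Of the 14747 genes tested, 10696 had a promoter in the table. A match was present for 12.3% of those, for 21.1% of the genes that rose (77 of 365), for 31% of those that rose at least 2-fold (9 of 29) and for 10.4% of the genes that fell (34 of 327). Counted by window rather than by gene, the share was 8.46% of all 32851 windows in the table and 10.4% of those of genes tested. By the same count it was 18.7% for genes that rose, 25% for those that rose at least 2-fold and 8.12% for genes that fell. A match describes letters in a window and not a bound site. No promoter was found in the table for Ccl2, Vcam1, Zbtb7c, Mmp9 or Arap3.

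The libraries held 14194295 to 18298552 counts, and the sums of cell type markers, in CPM (counts scaled to a common library size by TMM), showed which cells they represent. Kidney epithelial markers, among them Krt8, Krt18, Cdh1 and Cdh16, summed to 5007 to 5061 CPM with PBS and 4851 to 4896 CPM with TNF. Neutrophil markers were close to absent, with 6 of 10 at 0 counts in all 6 libraries and sums of 0.53 to 0.90 CPM, and 9 of 16 markers of T, B and NK cells, including Cd3d, Cd3e and Cd8a, were at 0 counts. The T, B and NK list still summed to 3.51 to 4.45 CPM with PBS and 2.66 to 3.07 CPM with TNF. Of its members, Lck had 31 to 63 counts per library and Trac 7 to 21. Macrophage and dendritic cell markers summed to 55.1 to 59.0 CPM with PBS and 60.5 to 63.3 CPM with TNF, and endothelial markers to 52.9 to 58.6 and 51.0 to 57.6 CPM. Fibroblast and pericyte markers were lower with TNF, at 887 to 911 CPM against 982 to 1094 CPM. Most of this sum was Acta2, at 557 to 652 CPM with PBS and 516 to 532 CPM with TNF. Of the 12 members tested, 3 were called lower, 0 were called higher and 3 had a log2 fold change above zero. Pdgfra was at 3.67 to 4.29 CPM with PBS and 4.39 to 5.12 CPM with TNF. In bulk RNA such as this, fewer cells of a type and less RNA per cell cannot be told apart.

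PBS replicate 1 stood apart from the other 5 libraries in neural transcripts. Neuron markers summed to 26.2 CPM in it, against 123 and 100 CPM in the other PBS libraries and 54.2, 86.2 and 73.2 CPM with TNF. Camk2a, a neuronal kinase, had 1 count in PBS replicate 1, 400 and 406 counts in PBS replicates 2 and 3, and 146, 300 and 278 counts with TNF. Neuron markers thus varied most within the PBS group, and both TNF and PBS libraries held them. A rule on the PBS libraries alone picked 156 genes. It required the mean of PBS replicates 2 and 3 to be at least 4-fold above PBS replicate 1, with 0.25 CPM added to both. Of these genes 140 were tested and 0 were called by edgeR in either direction. The rule selects genes with a wide spread within the PBS group, which makes a call unlikely, so 0 calls does not show that they were unchanged. At an unadjusted p under 0.05, 0 of the 19 neuron markers tested passed, and DESeq2 called 0. The median standard error of their log2 fold changes was 0.47, so this too does not show that they were unchanged. Without PBS replicate 1, 9 of 19 neuron markers, 6 of 6 oligodendrocyte markers and 2 of 10 astrocyte markers were called lower with TNF. The oligodendrocyte list includes Mal and Mbp, at 809 and 91.3 CPM even in PBS replicate 1, so not all its members mark neural RNA here. Results for neural genes thus depended on PBS replicate 1 and are not listed among the changes below.

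**Figure D1:**
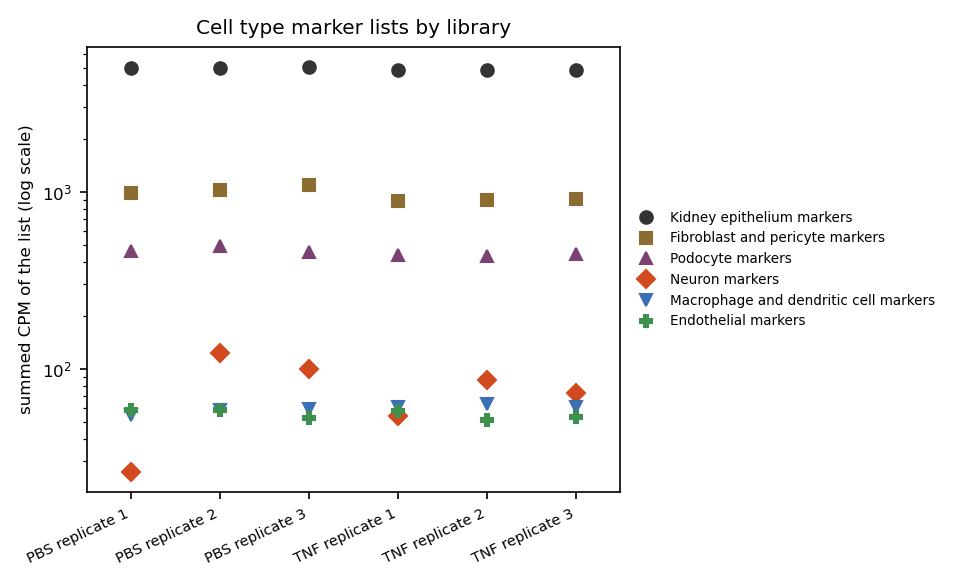
Summed expression of cell type marker lists (CPM, logarithmic axis) in each of the 6 libraries along the horizontal axis, with a symbol and colour for each list. Neuron markers range from 26.2 CPM in PBS replicate 1 to 123 CPM in PBS replicate 2, whereas kidney epithelial markers stay between 4851 and 5061 CPM in all 6.

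TNF changed many genes by small amounts and few genes by large amounts. By edgeR's quasi-likelihood test, 917 of 14747 genes passed an adjusted p under 0.05 (6.22% called), of which 488 rose (3.31%) and 429 fell (2.91%). Among them 46 rose at least 2-fold (0.312% of the genes tested) and 9 fell at least 2-fold (0.061%). All 9 genes past 4-fold rose. Most calls were small: in 582 of the 917 the change was a rise under 25% or a fall under 20%, with 304 of them higher and 278 lower. The median change among called genes was 0.26 on the log2 scale for rises and -0.26 for falls. Without PBS replicate 1 the counts were 479 higher and 478 lower, but 51 genes rather than 9 fell at least 2-fold. Without TNF replicate 1, 2 or 3, the rises numbered 252, 275 and 318, the falls 216, 224 and 279, and these small changes 229, 249 and 305. Only 4 genes fell at least 2-fold without TNF replicate 1.

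Such small changes could be called because replicates were close to each other. The coefficient of variation between replicates beyond counting noise was 4.01%, from a common dispersion of 0.00161 over all 9 libraries. Counting noise adds to this spread, most at low counts. Precision followed expression: the median standard error (SE) of a log2 fold change was 0.43 for genes under 1 CPM, 0.08 for genes of 10 to 30 CPM and 0.03 for genes of at least 1000 CPM. The smallest change called was 1.31 on the log2 scale under 1 CPM and 0.11 above 1000 CPM. The share of genes called was 0.48% in the lowest of these ranges and 18.1% in the highest, so a gene of low expression that was not called could still have changed by more than 2-fold. Counts of called list members given below stand against 6.22% of all genes tested, a share that itself increased with expression.

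**Figure D2:**
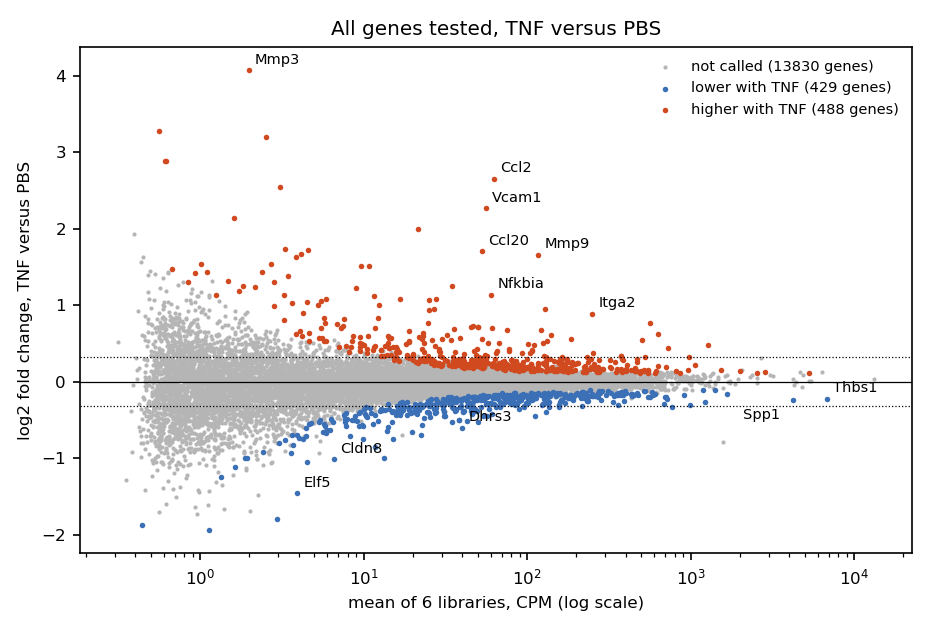
Log2 fold change, TNF against PBS, over mean expression (CPM, logarithmic axis) for the 14747 genes tested, with called genes coloured by direction, some genes named, and dotted lines at a rise of 25% and a fall of 20%. Called genes approach the line of no change as expression increases, and the rises reach further from it than the falls.

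Among the proteins that carry the TNF signal at the receptor, several adaptors and ligases rose while Tnfrsf1a and Tnfrsf1b did not pass the test. Traf1, an adaptor at the TNF receptor complex, was at 6.85, 7.86 and 7.20 CPM with PBS and 16.3, 15.8 and 15.6 CPM with TNF. Every TNF library was above every PBS library, a log2 fold change of 1.12 (SE 0.09, edgeR adjusted p = 1.3e-07). Birc3 and Birc2, ubiquitin ligases of the cIAP family, rose by 0.73 and 0.35 on the log2 scale. Tnfrsf1a, the main TNF receptor, was at 53.7 ± 1.09 CPM with PBS and 51.6 ± 1.49 with TNF (SD, n = 3), and its groups overlapped (edgeR adjusted p = 0.67). Tnfrsf1b, the second receptor, had a log2 fold change of 0.18 (adjusted p = 0.20), Ripk1 of 0.16 (0.068) and Traf2 of 0.26 (0.081). In all, 5 of 32 genes for TNF receptors and adaptors rose and 0 fell (15.6% called, against 6.22% of all genes). The median log2 fold change was 0.10 against 0.00 for all genes tested. The 2 others were Fadd, the adaptor to caspases (0.43), and Traf3 (0.15). Both calls were lost without TNF replicate 1, where the list count was 3, as it was by DESeq2, and without PBS replicate 1 or 2, with edgeR adjusted p up to 0.27 for Fadd and 0.23 for Traf3.

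Several inhibitors of NF-kB and several of its subunits rose. Nfkbia, which encodes IkBα, was at 36.0, 36.3 and 39.8 CPM with PBS and 79.8, 88.7 and 79.5 CPM with TNF. Every TNF library was far above every PBS library, a log2 fold change of 1.14 (SE 0.06, edgeR adjusted p = 6.5e-11). Nfkbie, which encodes IkBε, rose by 0.96, Tnfaip3, which encodes the ubiquitin-editing inhibitor A20, by 0.95, and its partner Tnip1 by 0.55. Of the subunits, Relb rose by 0.59, Nfkb2 by 0.40, Rel by 0.35 and Nfkb1 by 0.30. Rela, the p65 subunit, was at 66.8 ± 2.52 CPM with PBS and 69.7 ± 2.19 CPM with TNF (log2 fold change 0.06, adjusted p = 0.60), and Bcl3 had a log2 fold change of 0.31 with overlapping groups (adjusted p = 0.17). The list of Rel subunits and inhibitors had 8 of 22 genes higher and 0 lower, with a median log2 fold change of 0.31. Rel alone of these 8 lost its call when a library was left out, in 4 of 6 such fits (edgeR adjusted p up to 0.092). More than 10% of the exon length of Nfkb2 is shared with another gene, which makes its counts less certain.

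Chemokines, the secreted proteins that draw leukocytes, had the largest median change of the lists. Ccl7, a monocyte attractant, was at 0.28, 0.78 and 0.38 CPM with PBS and 5.27, 4.46 and 3.97 CPM with TNF, for a log2 fold change of 3.20 (SE 0.31, edgeR adjusted p = 1.3e-06). Its neighbour in function, Ccl2, increased by 2.66. A lymphocyte attractant, Ccl20, was at 24.3, 24.1 and 25.5 CPM with PBS and 77.4, 87.9 and 76.4 CPM with TNF (log2 fold change 1.71). The PBS and TNF libraries of both genes did not overlap, and for Ccl20 TNF replicate 2 was the highest. The neutrophil attractants Cxcl2 and Cxcl1 rose by 1.51 and 1.03, and Ccl9 by 1.13, while the T cell attractant Cxcl10 rose from 20.5 ± 1.82 to 49.0 ± 1.20 CPM. The membrane-bound chemokines Cxcl16 and Cx3cl1 rose by 0.61 and 0.58. Altogether 9 of 18 chemokines tested rose and 0 fell, with a median log2 fold change of 0.82. The marker sums of macrophages, a cell type that also makes chemokines, were 60.5 to 63.3 CPM with TNF against 55.1 to 59.0 CPM with PBS, 0 of 17 macrophage markers tested were called by edgeR (4 higher and 1 lower at an unadjusted p under 0.05), and the part of those cells in these values was not tested.

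**Figure D3:**
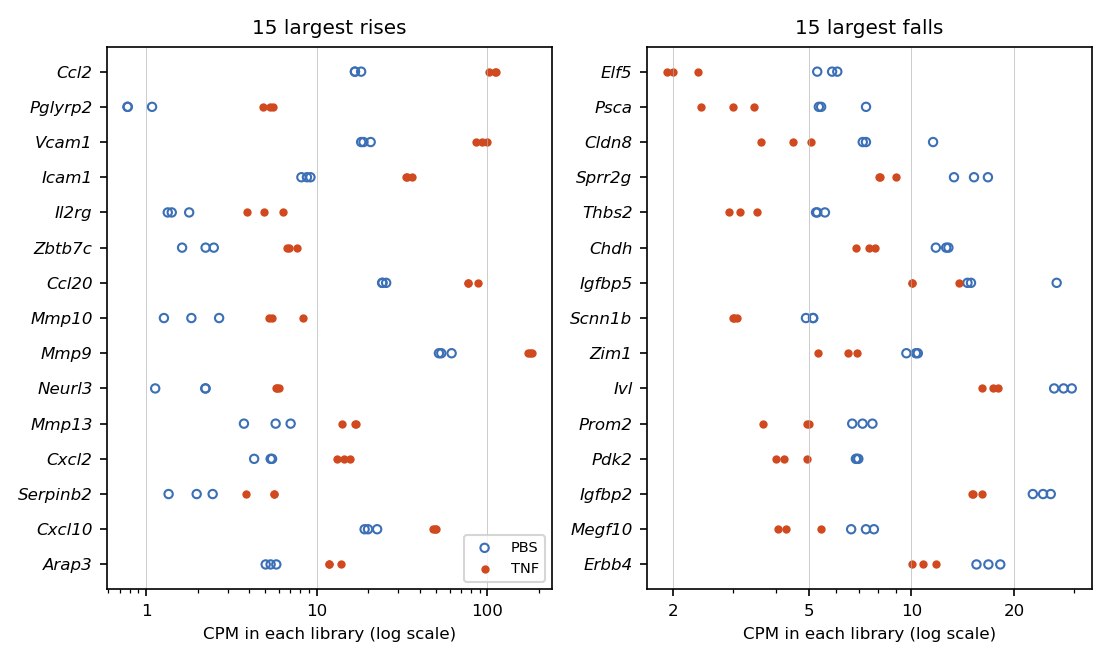
Expression (CPM, logarithmic axis) of the 15 genes with the largest rises and the 15 with the largest falls among called genes of at least 5 CPM, 1 point per library and group colour. The 3 PBS and 3 TNF points of each gene do not overlap, which the choice of genes required.

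Of 24 interleukin and colony-stimulating factor genes, 8 rose and 1 fell, with a median log2 fold change of 0.23. Csf1, which sustains macrophages, was abundant and tightly measured, at 422, 426 and 403 CPM with PBS and 703, 734 and 695 CPM with TNF. It rose by 0.77 on the log2 scale (SE 0.03, edgeR adjusted p = 8.8e-12), and the replicates of each group lay close together. Il1b, the fever cytokine, rose by 2.15 from 0.59 ± 0.12 to 2.64 ± 0.55 CPM, and Csf2, the granulocyte and macrophage growth factor, by 1.54 from 1.39 ± 0.16 to 4.07 ± 0.25 CPM. The Tnf transcript itself rose by 1.30, from 1.62 ± 0.28 to 4.02 ± 0.72 CPM, and Il23a, an interleukin subunit, by 1.01. These transcripts were higher in every TNF library than in any PBS library, at levels far below Csf1 in CPM, a scale not corrected for gene length. The gene that fell was Kitl, the ligand of KIT (-0.34), and without TNF replicate 1 it was not called (edgeR adjusted p = 0.078).

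Adhesion molecules for leukocytes moved in both directions, 4 of 15 higher and 2 lower. Besides Vcam1 (log2 fold change 2.27) and Icam1 (1.99), Cd44 and Cd47 rose. Cd44, a receptor for hyaluronan, was at 1054, 1057 and 1068 CPM with PBS and 1482, 1506 and 1461 CPM with TNF. The groups were 39.9% apart in the mean, far more than the replicates of either group, a log2 fold change of 0.48 (SE 0.03, edgeR adjusted p = 8.0e-10). Cd47, a signal against phagocytosis, rose by 0.33. Alcam and Nectin3, which hold neighbouring cells together, fell by 0.39 and 0.28 on the log2 scale.

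Among integrins, which bind matrix, a single subunit stood out. Itga2, the collagen-binding α2 subunit (chromosome 13, 114969617 to 115068636, GRCm39), was at 184, 167 and 174 CPM with PBS and 330, 330 and 315 CPM with TNF. Both groups were tight and far apart, for a log2 fold change of 0.89 (SE 0.05, edgeR adjusted p = 1.3e-10). Itgav and Itga5, subunits of the vitronectin and fibronectin receptors respectively, rose by 0.22 and 0.20, and Itgb8 fell by 0.50. In all 3 of 21 integrins rose and 1 fell (19% called, against 6.22% of all genes), with a median of 0.00. The call of Itgb8 was lost without PBS replicate 3 or TNF replicate 1 (adjusted p = 0.064 and 0.086), and that of Itga5 without TNF replicate 2 (0.069).

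Of 20 genes for presenting antigens on MHC class I, 8 rose and 0 fell; 18 of 20 were above zero and the median was 0.20 on the log2 scale. Irf1, a transcription factor of these genes, rose by 0.55 from 21.2 ± 2.04 to 31.2 ± 2.44 CPM. Psme2, a subunit of a proteasome activator, was at 43.3, 41.3 and 43.4 CPM with PBS and 55.8, 55.1 and 52.4 CPM with TNF (log2 fold change 0.35, SE 0.06, edgeR adjusted p = 0.0011). B2m, the shared light chain of class I molecules, was at 292, 294 and 310 CPM with PBS and 341, 347 and 334 CPM with TNF (log2 fold change 0.19, SE 0.03). In both genes the lowest TNF library was above the highest PBS library. Tap1, the peptide transporter, rose by 0.46 and the class I gene H2-Q4 by 0.45. The list held 5 called genes without TNF replicate 1 or without TNF replicate 2. Tap1 was not called in 3 of 6 fits with a library left out (edgeR adjusted p up to 0.13), nor H2-Q4 without TNF replicate 2 (0.054). Irf1 and H2-Q4 share more than 10% of their exon length with another gene, and class I genes resemble each other closely, so the assignment of reads to H2-Q4 is uncertain.

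Interferon-stimulated genes did not move in a single direction. Of 34 tested, 6 rose and 2 fell, with a median log2 fold change of 0.10. Ifitm3, a membrane protein that restricts virus entry, rose by 0.51 (SE 0.08), from 19.4 ± 1.53 to 27.6 ± 0.96 CPM. Ifit3, an RNA-binding antiviral protein, was at 36.2, 42.7 and 43.8 CPM with PBS and 24.6, 32.1 and 29.6 CPM with TNF (log2 fold change -0.52, SE 0.09, edgeR adjusted p = 0.00075). Its near-identical neighbour Ifit3b fell by 0.59, and reads cannot be divided between the pair with certainty. The GTPase gene Gbp2 had a log2 fold change of 0.57, called with all libraries (edgeR adjusted p = 0.032) and in 0 of the 6 fits with a library left out (up to 0.11). Without TNF replicate 1, or without TNF replicate 2, 3 genes of this list rose.

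Complement and acute-phase genes had few members called but large changes. C3, the central complement protein, was at 17.0, 17.8 and 18.1 CPM with PBS and 35.4, 41.3 and 35.5 CPM with TNF. Each TNF library was well above the highest PBS library, a log2 fold change of 1.08 (SE 0.08, edgeR adjusted p = 2.8e-08). The other called complement gene was C1s1, a protease that starts the classical pathway (1.01). In total 2 of 13 were called (15.4%, against 6.22% of all genes). Of 19 innate sensors and acute-phase genes, 4 rose and 0 fell, while DESeq2 called 2 higher. Pglyrp2, an enzyme that cleaves bacterial peptidoglycan, was at 0.78, 0.78 and 1.08 CPM with PBS and 4.83, 5.33 and 5.57 CPM with TNF (log2 fold change 2.55). Hp, haptoglobin, had 1, 1 and 3 counts with PBS and 20, 15 and 15 counts with TNF, and Tlr2, a receptor for bacterial lipoproteins, rose by 0.41. Nod2, a cytosolic sensor, had a log2 fold change of 1.14 at 0.78 ± 0.27 CPM with PBS and was not called in 5 of the 6 fits with a library left out (edgeR adjusted p up to 0.15). Pglyrp2 and C1s1 share more than 10% of their exon length with another gene.

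The enzyme genes of prostaglandin synthesis changed little at this time. Ptges rose by 0.51 from 7.85 ± 0.68 to 11.1 ± 0.89 CPM, and Ptgs2, which encodes the inducible cyclooxygenase, by 0.15, 2 of 11 genes on the list, with 0 lower. Neither was called without TNF replicate 1 or without TNF replicate 3, and Ptgs2 also not without PBS replicate 1 (edgeR adjusted p up to 0.15), where 2 other genes of the list were lower.

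Of 24 metalloproteinase and inhibitor genes 7 rose and 3 fell. A total of 14 were above zero and the median log2 fold change was 0.02. Mmp9, which degrades basement membrane collagen, was at 51.9, 53.6 and 61.6 CPM with PBS and 172, 182 and 177 CPM with TNF (log2 fold change 1.66, SE 0.05, edgeR adjusted p = 6.5e-14). The collagenase Mmp13 was at 3.74, 7.02 and 5.74 CPM with PBS and 16.8, 17.1 and 14 CPM with TNF (log2 fold change 1.51). For both genes the lowest TNF library was well above the highest PBS library. Mmp10 increased by 1.67, the elastase Mmp12 by 1.09, and Mmp3 was nearly silent with PBS, at 0, 8 and 3 counts against 58, 67 and 57 counts with TNF. Of the inhibitors, Timp1 rose by 0.33, and Timp3, which is bound to matrix, fell by 0.32 from 239 ± 14 to 192 ± 3.36 CPM. Adamts5 and Adamts1, proteases of proteoglycans, fell by 0.17 and 0.12, and Adamts1 lost its call in 4 of the 6 fits with a library left out (edgeR adjusted p up to 0.12).

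In the plasminogen system, which activates several metalloproteinases, 6 of 14 genes rose and 0 fell, with a median log2 fold change of 0.15. Serpinb2, an inhibitor of plasminogen activators, rose by 1.38 at low expression, from 1.93 ± 0.55 to 5.01 ± 1.01 CPM. Plat, the tissue plasminogen activator, was at 89.8, 98.4 and 83.8 CPM with PBS and 119, 118 and 115 CPM with TNF (log2 fold change 0.38, SE 0.05, edgeR adjusted p = 0.00011). Its groups did not overlap, and the PBS libraries differed more among themselves than the TNF libraries. The inhibitor Serpine2 and the plasminogen receptor subunit S100a10 rose by 0.32 and 0.19. Both lost their calls without TNF replicate 1 or without TNF replicate 2 (edgeR adjusted p 0.053 to 0.10), Serpine2 also without PBS replicate 1 (0.082), and the list then held 2 genes. Timp3 and Serpinb2 share more than 10% of their exon length with another gene.

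In the list of collecting duct and distal transport genes, 6 of 25 fell and 1 rose. In all 4 of 25 were above zero and the median log2 fold change was -0.25. Elf5, an ETS transcription factor of epithelia (chromosome 2, 103242033 to 103281334, GRCm39), was at 5.29, 5.85 and 6.06 CPM with PBS and 1.92, 2.00 and 2.37 CPM with TNF. Its level dropped by 63.5% in the mean with no overlap, a log2 fold change of -1.46 (SE 0.18, edgeR adjusted p = 3.2e-05). Among the subunits of the epithelial sodium channel, 2 passed the test. Scnn1b was at 5.15, 4.90 and 5.14 CPM with PBS and 3.02, 3.00 and 3.07 CPM with TNF (log2 fold change -0.74), and Scnn1a fell by 0.49 from 44.5 ± 1.26 to 31.8 ± 3.17 CPM. The third subunit, Scnn1g, had a log2 fold change of -0.41 with overlapping groups and was not called (edgeR adjusted p = 0.22). The potassium channel subunit Kcnj16 fell by 0.42 from 70.1 ± 2.76 to 52.6 ± 0.23 CPM. Wnk4, a kinase that regulates salt transport, had a log2 fold change of -0.53, and its call was lost in 5 of the 6 fits with a library left out (edgeR adjusted p up to 0.13). Against this direction, Hsd11b2, which inactivates glucocorticoids and so protects the mineralocorticoid receptor, rose by 0.59 from 6.83 ± 0.30 to 10.3 ± 0.53 CPM.

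Of 17 proximal tubule enzymes and transporters tested 4 fell and 0 rose, and 23 of the 40 listed were below the filter. The median log2 fold change of the list was -0.04, with 8 of 17 genes above zero. The groups did not overlap in 3 of 17 genes that were higher and 5 of 17 that were lower. Over all genes tested these shares were 12.3% and 11.5%. Chdh, which makes betaine from choline, fell by 0.75 from 12.4 ± 0.56 to 7.38 ± 0.48 CPM, and Ggt1, a glutathione-cleaving brush border enzyme, by 0.57 from 27.3 ± 0.78 to 18.5 ± 1.30 CPM. Mme, neprilysin, was at 262, 266 and 263 CPM with PBS and 231, 233 and 230 CPM with TNF. Expression decreased by 12.2%, far more than the spread between replicates, with a log2 fold change of -0.19 (SE 0.03, edgeR adjusted p = 0.00093). The water channel gene Aqp1 had a log2 fold change of -0.99 at 2.56 ± 0.58 CPM with PBS, and lost its call in 5 of 6 fits with a library left out (adjusted p up to 0.14).

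Of 32 transcription factors of the kidney lineage 5 fell and 0 rose (15.6% called, against 6.22% of all genes). The median was -0.10, with 10 above zero. Pax2 was at 48.1, 48.8 and 47.9 CPM with PBS and 39.0, 39.6 and 40.2 CPM with TNF (log2 fold change -0.28, SE 0.06, edgeR adjusted p = 0.0046). Lhx1 fell by 0.37 and Pou3f3 by 0.28, again with no overlap. Tfap2a and Sim1, at -0.33 and -0.29, were not called in 3 and 4 of 6 fits with a library left out (adjusted p up to 0.084 and 0.10), and 3 genes of the list were called without TNF replicate 2 or without TNF replicate 3. More than 10% of the exon length of Tfap2a is shared with another gene.

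Among junction genes, 2 claudins of the distal tubule fell. Cldn8, of the collecting duct, was at 7.20, 7.36 and 11.6 CPM with PBS and 3.62, 5.06 and 4.48 CPM with TNF (log2 fold change -1.01, SE 0.19, edgeR adjusted p = 0.0023). Cldn19, a claudin of magnesium transport in the thick ascending limb, fell by 0.43, while Cldn1, a barrier claudin, rose by 0.15 from 519 ± 5.02 to 576 ± 9.45 CPM. Ocln, occludin, had a log2 fold change of -0.18, and Cgn, cingulin, of 0.13, each called with all libraries and not called in 5 of 6 fits with a library left out (edgeR adjusted p up to 0.13 and 0.14). In all 2 of 29 junction genes rose and 3 fell (17.2% called, against 6.22% of all genes), while DESeq2 called 4 higher. Epcam, a general epithelial marker, was at 422 ± 12.2 and 456 ± 4.89 CPM (log2 fold change 0.11, adjusted p = 0.059). Podocyte markers summed to 431 to 445 CPM with TNF against 458 to 494 CPM with PBS. Synpo, synaptopodin of the podocyte cytoskeleton, fell by 0.37 from 41.7 ± 3.07 to 32.2 ± 3.41 CPM. Pkhd1, fibrocystin of the primary cilium, fell by 0.26 and was the 1 called gene among 42 cilium genes.

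**Figure D4:**
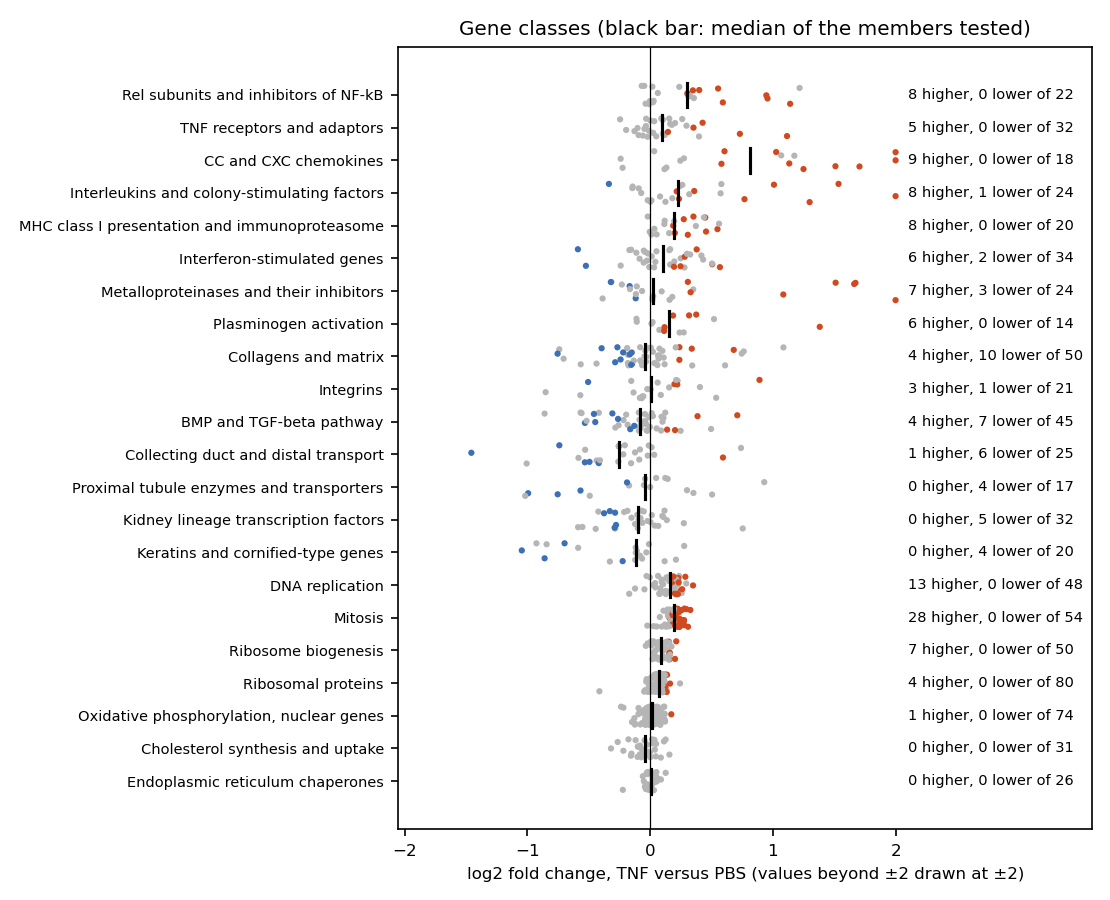
Log2 fold change, TNF against PBS, of every tested gene in the named gene classes, 1 point per gene, red where called higher and blue where called lower, with a bar at the median of each class and values beyond 2 in either direction drawn at that limit. Chemokines have a median of 0.82 and collecting duct genes of -0.25, whereas the points of the mitosis class crowd together just above zero with 53 of 54 on that side.

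In the list of keratins and cornified-type genes 4 of 20 fell and 0 rose, with a median of -0.12 and 3 above zero. Ivl, involucrin of the cornified envelope, was at 29.6, 28.0 and 26.2 CPM with PBS and 17.4, 16.1 and 18 CPM with TNF (log2 fold change -0.70, SE 0.08, edgeR adjusted p = 7.3e-06). Sprr2g, another envelope protein, fell by 0.86 and the surface protein gene Psca by 1.04. Ly6a, Sca-1, fell by 0.22 from 770 ± 12.3 to 660 ± 11.7 CPM. Erbb4, a receptor of the EGF family found in the distal nephron, fell by 0.64 from 16.9 ± 1.36 to 10.9 ± 0.91 CPM.

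Of 50 collagen and matrix genes, 4 rose and 10 fell, with a median of -0.04 and 21 above zero. The list median of TNF replicate 3 lay within the range of the PBS libraries. Fibroblast marker sums, which include Col1a1 and consist mostly of Acta2, were lower with TNF, as given above. The part of fibroblasts in these results was not tested. Col1a1 was at 146, 141 and 157 CPM with PBS and 112, 109 and 118 CPM with TNF (log2 fold change -0.39, SE 0.05, edgeR adjusted p = 9.6e-06). Its groups were well apart. The basement membrane chains Col4a5 and Col4a3 fell by 0.27 and 0.17, and Thbs2, an inhibitor of angiogenesis, by 0.75. Of the rises, Col5a3 increased by 0.68 from 57.9 ± 3.68 to 93.1 ± 3.52 CPM, and the chains of the epithelial laminin Lama3 and Lamb3 by 0.34 and 0.24. Thbs2 lost its call in 4 of the 6 fits with a library left out (edgeR adjusted p up to 0.13).

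Of 34 actin and contractile genes 2 rose and 5 fell, with 14 above zero, and again the list median of TNF replicate 3 lay within the PBS range. Cnn1, calponin of smooth muscle, was at 43.7, 43.3 and 46.5 CPM with PBS and 29.7, 31.5 and 33.6 CPM with TNF (log2 fold change -0.50, SE 0.07, edgeR adjusted p = 6.7e-05). Acta2, smooth muscle actin, and Tpm2 had log2 fold changes of -0.20 each, and Mylk, myosin light chain kinase, of -0.58. The calls of these last 3 were lost without TNF replicate 1 or without TNF replicate 2 (adjusted p up to 0.12), after which 1 gene of the list was still lower. Without PBS replicate 2, PBS replicate 3 or TNF replicate 3, 3 genes of the list fell, and without TNF replicate 1 or 3, 0 rose.

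Secreted growth regulators changed in both directions. Grem1, an extracellular antagonist of BMPs, was at 38.3, 38.8 and 37.5 CPM with PBS and 67.2, 61.6 and 58.4 CPM with TNF (log2 fold change 0.71, SE 0.06, edgeR adjusted p = 5.9e-08). Bmp7, a BMP of the tubule, fell by 0.31, and Id2, a target gene of BMP signalling, by 0.53 from 59.1 ± 5.85 to 41.1 ± 2.65 CPM. The ligand Tgfb1 rose by 0.39, while Gdf15, a stress-induced ligand, fell by 0.45 from 129 ± 18.8 to 94.9 ± 6.68 CPM. The BMP and TGF-beta list had 4 of 45 higher and 7 lower, with a median of -0.08. Without TNF replicate 1 or without TNF replicate 2 it had 2 higher and 4 lower, and without TNF replicate 3 it had 2 higher.

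In the Wnt and Notch list 1 of 44 genes rose and 5 fell (13.6% called, against 6.22% of all genes), with a median of -0.05. Tcf7l2, a transcription factor of Wnt signalling, fell by 0.45 from 36.5 ± 2.71 to 26.8 ± 1.83 CPM, and the secreted proteins Dkk3 and Sfrp1 by 0.43 and 0.40. Notch3, the receptor of pericytes, fell by 0.58. Without TNF replicate 1, 2 of these genes were called, and neither Notch3 (edgeR adjusted p = 0.053) nor Sfrp1 (0.060) was among them. The insulin-like growth factor binding protein Igfbp2 fell by 0.65 from 24.2 ± 1.47 to 15.5 ± 0.58 CPM.

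Many genes of cell division rose by small amounts. Of 54 mitosis genes 28 rose and 0 fell, with a median log2 fold change of 0.19. In 53 of 54 the change was above zero, and in 39 no TNF library overlapped a PBS library, a pattern found upward in 12.3% and downward in 11.5% of all genes tested. Top2a, a mitotic topoisomerase, was at 329, 323 and 296 CPM with PBS and 392, 374 and 364 CPM with TNF (log2 fold change 0.25, SE 0.04, edgeR adjusted p = 0.0012). Kif2c and Kif20a, motor proteins of the spindle and midzone, rose by 0.31 and 0.30. The proliferation marker Mki67 was at 324, 301 and 247 CPM with PBS and 349, 362 and 346 CPM with TNF. Its PBS libraries were more spread than those of Top2a, with replicate 3 the lowest. Relative to the PBS mean, the median of the list was 0.04, 0.03 and -0.07 on the log2 scale for PBS replicates 1 to 3 and 0.20, 0.21 and 0.15 for TNF replicates 1 to 3.

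These rises were near the limit of the test. Without TNF replicate 1 the number of mitosis genes called was 10, without TNF replicate 2 it was 13 and without PBS replicate 3 it was 16. Mki67 and Ndc80, a kinetochore subunit with a log2 fold change of 0.33, lost their calls in 4 and 3 of the 6 fits with a library left out (edgeR adjusted p up to 0.16 and 0.095). Genes of DNA replication showed a like shift, with 13 of 48 higher, 0 lower, a median of 0.16 and 43 above zero. Rrm1, the large subunit of ribonucleotide reductase, was at 165, 165 and 158 CPM with PBS and 204, 193 and 187 CPM with TNF (log2 fold change 0.26, SE 0.04, edgeR adjusted p = 0.00065). The helicase subunits Mcm6 and Mcm4 rose by 0.25 and 0.23 and the initiation factor Mcm10 by 0.35. The count of DNA replication genes called was 6 without TNF replicate 1, and 8 without PBS replicate 2 or without TNF replicate 2.

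Few ribosomal protein genes passed the test, while the share was higher among ribosome biogenesis genes. Of 80 ribosomal protein genes 4 rose and 0 fell (5% called, near the 6.22% of all genes), and 70 were above zero, with a median log2 fold change of 0.07. Relative to the PBS mean, the list medians overlapped between groups, at -0.01, -0.06 and 0.06 for PBS replicates 1 to 3 and 0.05, 0.09 and 0.07 for TNF replicates 1 to 3. Rps24, of the small subunit, was at 785, 802 and 747 CPM with PBS and 848, 886 and 834 CPM with TNF (log2 fold change 0.14, SE 0.04, edgeR adjusted p = 0.027). Its groups did not overlap, and it was not called without PBS replicate 3, TNF replicate 1 or TNF replicate 2 (up to 0.17). Of 50 ribosome biogenesis genes 7 rose and 0 fell (14% called), with a median of 0.09 and 48 above zero. Its medians by library were 0.03, 0.03 and -0.05 with PBS and 0.09, 0.10 and 0.09 with TNF, which did not overlap. Npm1, nucleophosmin of the nucleolus, was at 1493, 1504 and 1330 CPM with PBS and 1638, 1639 and 1558 CPM with TNF (log2 fold change 0.16, adjusted p = 0.042). PBS replicate 3 was the lowest here, as it was for Mki67. Leaving out TNF replicate 2 left 0 genes of either list called. Without PBS replicate 3, without TNF replicate 1 and without TNF replicate 3, the biogenesis list had 1, 2 and 1 genes called, and the ribosomal protein list 9, 1 and 2, while without PBS replicate 2 the latter had 2. Npm1 was called in 2 of those 6 fits.

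Several large metabolic and stress lists had few or no genes called, but the antioxidant list was not among them. Of 74 nuclear genes of oxidative phosphorylation 1 rose and 0 fell, with a median of 0.02 (median SE 0.06). Of 31 genes of cholesterol synthesis and uptake 0 were called by edgeR, 1 higher and 8 lower had an unadjusted p under 0.05, and DESeq2 called 1 lower. Of 26 endoplasmic reticulum chaperones 0 were called, with 1 higher and 1 lower at an unadjusted p under 0.05, and DESeq2 called 0. The circadian clock list likewise had 0 of 21 called, with 2 higher and 1 lower at an unadjusted p under 0.05 and 1 higher by DESeq2. Of 27 antioxidant genes 4 fell and 0 rose (14.8% called, above the 6.22% of all genes). Gpx3, plasma glutathione peroxidase, fell by 0.35 from 50.5 ± 1.99 to 39.7 ± 3.6 CPM, and Gsr, glutathione reductase, by 0.19 from 288 ± 6.09 to 252 ± 0.66 CPM. Gclm and Prdx5 had log2 fold changes of -0.22 and -0.19, with the call of Gclm lost without TNF replicate 3 and that of Prdx5 without PBS replicate 3 or TNF replicate 1 (edgeR adjusted p up to 0.095). Sod2, the mitochondrial superoxide dismutase known as an NF-kB target, was at 44.8 ± 1.51 CPM with PBS and 42.7 ± 1.53 CPM with TNF, and its groups overlapped (log2 fold change -0.07, adjusted p = 0.56). Slc7a2, a transporter of arginine, stood apart in the amino acid supply list with a rise of 1.44, from 1.29 ± 0.20 to 3.52 ± 0.35 CPM.

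The small rises with the smallest edgeR p, each under 25%, included genes of signalling and secretion. Cdcp1, a transmembrane substrate of Src kinases, was at 215, 204 and 206 CPM with PBS and 264, 257 and 258 CPM with TNF (log2 fold change 0.32, SE 0.04, edgeR adjusted p = 7.3e-06). Clic4, a chloride channel family protein, was at 349, 331 and 347 CPM with PBS and 427, 418 and 418 CPM with TNF, a rise of 22.9%. In both genes the gap between the groups was wider than the whole range within either. Ccn4, a matricellular Wnt target, rose by 22.6%, the elongation factor Ell2 by 21.2%, the septin Sept9 by 22.6%, Uap1, an enzyme that makes the sugar donor for glycans, by 19.6%, and the early response gene Ier3 by 21.3%.

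The small falls held some of the most abundant transcripts of the cultures. Thbs1, a thrombospondin, was at 7303, 7258 and 7284 CPM with PBS and 6208, 6095 and 6463 CPM with TNF. The PBS libraries were nearly equal, and expression decreased by 14.1%, a log2 fold change of -0.22 (SE 0.03, edgeR adjusted p = 4.6e-05). Spp1, osteopontin, was at 4586, 4730 and 4424 CPM with PBS and 3888, 3847 and 3893 CPM with TNF (log2 fold change -0.24). Mal2, a protein of apical transport, was at 425, 427 and 420 CPM with PBS and 355, 358 and 357 CPM with TNF, the tightest pair of groups in this set. Tns1, tensin of focal adhesions, fell by 0.29, the phosphatase gene Ptprj by 0.26, the steroid reductase gene Srd5a1 by 0.30 and the sphingosine phosphate transporter gene Spns2 by 0.30. Calls for all of these small rises and falls held when any 1 library was left out, at edgeR adjusted p up to 0.0054. The genes were chosen for a small p and for groups that do not overlap, which favours this outcome. Spp1 and Srd5a1 share more than 10% of their exon length with another gene.

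**Figure D5:**
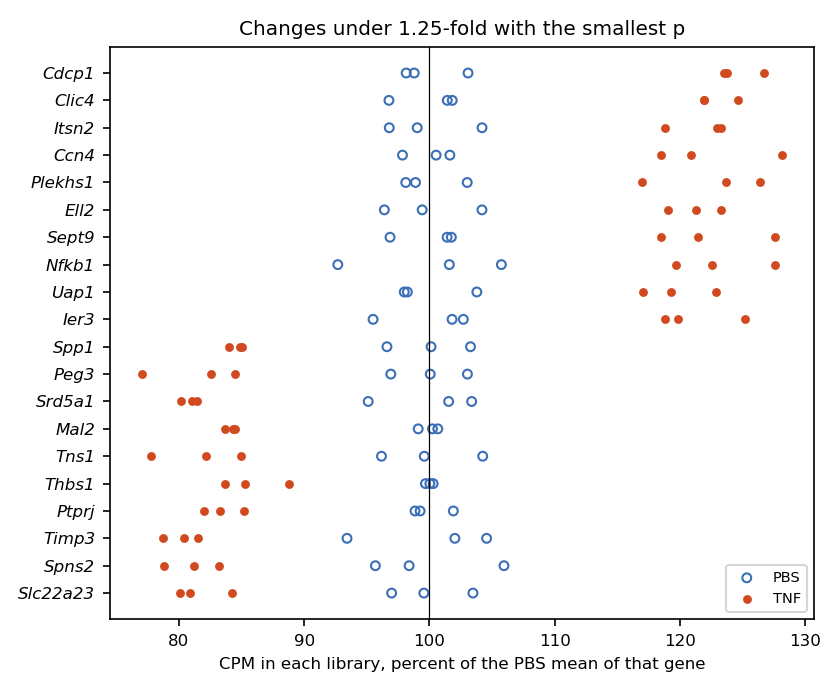
Expression in each of the 6 libraries as a percent of the PBS mean of the gene, 1 point per library. Shown are the 10 small rises and the 10 small falls with the smallest edgeR p. The choice of genes required that the PBS and TNF libraries not overlap. The PBS points gather around 100% and the TNF points lie apart from them on 1 side for every gene, above for the rises, such as the 24.7% of Cdcp1, and below for the falls.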

How the data were processed

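RNA sequencing counts of 6 libraries were compared, PBS and TNF with 3 each. The authors deposited raw read counts per Ensembl gene, made with featureCounts 2.0.1 on Ensembl 109 (GRCm39), per the file headers. STAR and mm10 are named per the submitters' processing notes, but the deposited gene intervals lie on GRCm39. Counting was without strand, per the file headers, so reads of a gene and its antisense partner cannot be told apart. Symbols were matched for 52029 gene identifiers (99.6% of counts).

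The software was R 4.3.3 with edgeR 4.0.16, DESeq2 1.42.0 and limma 3.58.1. The filter was filterByExpr, libraries were scaled by TMM factors (0.993 to 1.01), and edgeR's quasi-likelihood model was fitted to all 9 libraries. Calls required an adjusted p (Benjamini-Hochberg, 14747 genes) below 0.05, and fold changes are TNF against PBS. CPM values use the TMM factors. No 2 replicates were copies of each other. The scripts were tested on simulated data.

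The 54 gene lists (1638 genes, 1412 of them tested) and the members were chosen with earlier results of these data known, so lists are described by counts and medians. Named were the 15 largest changes in each direction with at least 5 CPM and no overlap between groups (predicted genes left out). Up to 4 called genes per list and members of the TNF pathway were named too. Small changes (rises under 25%, falls under 20%) were the 10 in each direction with the smallest edgeR p and no overlap between groups. Further list members were named after their values were seen, and a few genes are not reported here. Alternatives were DESeq2, RLE factors, other filters, the 6 libraries alone, a replicate block, leaving out each library, leaving out genes that follow the neural transcripts, and an adjusted p under 0.01.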

Additional observations from a re-analysis of the deposited data

How the results depend on the processing

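Of the 14 alternatives tried, 0 turned the direction of a gene called in the analysis of all libraries. The alternatives share all or most of the same counts, which makes a turn unlikely for a called gene. The counts of genes higher and lower were within 1.5 times of 488 and 429 except when a TNF library was left out and at an adjusted p under 0.01, where 248 genes were higher, 194 lower and 216 had a rise under 25% or a fall under 20%. Leaving out each library in turn gave 252 to 479 genes higher, 216 to 478 lower and 229 to 531 such small changes, against 582. The 9 genes at least 2-fold lower were the least stable count: 4 with DESeq2, 40 with no filter, 15 without the genes that follow the neural transcripts, 5 at an adjusted p under 0.01, and 4 to 51 with a library left out. The fit with the replicate number as a block called 512 genes higher and 433 lower, of which 468 and 405 were shared with the fit without it. Deviations from the group means correlated at 0.15, 0.08 and 0.10 between same-numbered PBS and TNF libraries, and each library correlated best with its own number, a hint from the data and not from the design, so the numbers were not taken as pairs. Of 202 called genes chosen for naming, 136 were called in every fit with 1 library left out. DESeq2 did not call 18 of them. The cause of these differences was not tested. Depth limits the result for genes under 1 CPM, where the smallest change called was 1.31 on the log2 scale.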

Other observations

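A group of 3 neighbouring genes of an imprinted cluster on chromosome 7 fell with TNF. Peg3, a zinc finger protein expressed from the paternal allele (6706891 to 6733430, GRCm39), was at 1130, 1098 and 1063 CPM with PBS and 845, 906 and 927 CPM with TNF, a log2 fold change of -0.30 (edgeR adjusted p = 2.7e-05). Zim1 (6674268 to 6699449) fell by 0.71 from 10.1 ± 0.42 to 6.26 ± 0.84 CPM. Usp29 (6733577 to 6970218), named after its values were seen, was at 20.4, 24.6 and 18.8 CPM with PBS and 16.9, 15.5 and 17.1 CPM with TNF. Its log2 fold change was -0.37 (edgeR adjusted p = 0.028), lost in 4 of the 6 fits with a library left out (up to 0.16), and it shares more than 10% of its exon length with another gene.

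The mitochondrial proline tRNA gene mt-Tp, also named after its values were seen, was at 16.9, 16.6 and 15.3 CPM with PBS and 34.0, 35.0 and 33.0 CPM with TNF, a log2 fold change of 1.07 (edgeR adjusted p = 3.2e-06). The PBS and TNF values were far apart and tight within each group. On the same mitochondrial strand, mt-Nd6, a subunit of complex I, was at 2393 ± 307 CPM with PBS and 2968 ± 197 CPM with TNF and was not called (log2 fold change 0.31, adjusted p = 0.091).

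Genes outside the lists were among the large changes as well. Il2rg, the shared chain of several interleukin receptors, rose by 1.74 from 1.51 ± 0.24 to 5.07 ± 1.24 CPM. Arap3, a GTPase-activating protein, rose by 1.23 from 5.39 ± 0.39 to 12.6 ± 1.21 CPM, and Dock10, an exchange factor for small GTPases, by 1.08 from 3.79 ± 0.48 to 8.06 ± 0.66 CPM. Dhrs3, a reductase of retinal, fell by 0.60 from 48.4 ± 2.90 to 32.0 ± 1.07 CPM, and Pdk2, a kinase of pyruvate dehydrogenase, by 0.66 from 6.92 ± 0.06 to 4.39 ± 0.48 CPM. Mgp, an inhibitor of calcification, had 25, 44 and 23 counts with PBS and 12, 7 and 4 counts with TNF (log2 fold change -1.94, edgeR adjusted p = 0.0043). Dock10, Dhrs3 and Mgp were named after their values were seen, and the calls of all 6 genes held when any 1 library was left out.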
